A study of Mus musculus with 28 samples.

Results

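Transcripts of 10 genes of the p53 and DNA break response were followed in nuclei from mouse motor cortex that did or did not carry the nuclease Cas9. The genes were Trp53, its inhibitors Mdm2 and Mdm4, the p53 targets Cdkn1a, Ccng1, Zmat3 and Bax, the break kinases Atm and Atr, and the break-site protein Trp53bp1. They were taken by symbol from the count tables, where each of the 10 symbols occurred once among 41549 named genes. The question addressed was whether Cas9 cutting in neurons leaves a transcript trace of a damage response.

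The libraries came from 7 mice, numbered 17 to 23, whose motor cortex had received an adeno-associated virus (AAV) vector for Cas9 in both hemispheres by stereotactic injection. AAV-Cas9-miR-124-empty was injected on the left and AAV-Cas9-miR-124-g4 on the right, and vector and hemisphere therefore cannot be told apart. All 4 groups therefore came from injected cortex of the same animals, and no uninjected tissue entered the comparisons. Nuclei of fixed tissue were stained for the HA tag and sorted, and HA-positive nuclei are listed as Cas9 positive. Each vector gave an HA-positive and an HA-negative group, which makes 4 groups of 7 libraries. The vectors are named for miR-124, a microRNA abundant in neurons. The labels do not state the promoter that drives Cas9, the strain, age or sex of the mice, the time after injection, what g4 and empty carry or how much DNA was cut.

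The transcription factor p53, the product of Trp53, is made continuously and destroyed through the ubiquitin ligase Mdm2 with its partner Mdm4. At a DNA double-strand break the kinase Atm is activated, while Atr responds to single-stranded DNA, and both act on p53 and its inhibitors so that p53 protein accumulates and its target genes are transcribed. This activation works mainly on proteins, and the targets are the part of the pathway that transcript counts are best placed to show. In neurons, which do not divide, p53 is known mostly for its part in cell death after injury.

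Of the target genes, 3 carry a p53 response element close to a transcription start, and these are shown because p53 acts on its targets through such sequences. The search covered RefSeq windows (GRCm38.p6) from 250 bases before to 50 bases after each start, of which 11 belonged to 9 of the 10 genes, with Zmat3 not among them. An element was a pair of 10-base repeats of the p53 motif with at most 1 base between them, in which the central C and G of each repeat had to match and at most 2 other bases could differ. The motif reads the same on both strands. Capitals mark the pair of repeats, and each sequence is given 5′ to 3′ on the strand of its gene.
Cdkn1a: tcagGAACATGTCTTGACATGTTCagcc
Ccng1: ggccAGACCTGCCCGGGCAAGCCTtggc
Bax: tcccAGGCAAGCTTTGAACTTGCGGcaat
The intervals that follow are those of the printed stretches, which hold the element in capitals and flanking bases in lower case. The Cdkn1a stretch lies at chr17:29090924-29090951 on the plus strand, and its element begins 51 bases before the start, with 1 base off the motif. The Ccng1 stretch lies at chr11:40755458-40755485 on the minus strand, with an element that begins 195 bases before the start and is also 1 base off. The Bax stretch lies at chr7:45467075-45467103 on the minus strand, with an element that begins 201 bases before the start and has 2 bases off and 1 base between the repeats. Such a match was found in 3 of the 9 genes and in 224 of 32851 windows searched (0.682%). The second is a share of windows and not of genes, so the values are not like for like. It describes the letters in these windows and does not show binding.

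The libraries were shallow, with 248612 to 902944 counts and 8687 to 13668 genes detected per library, and the 10 genes together received 109 to 423 counts per library. Nuclear and mitochondrial ribosomal RNA genes took 17.0% to 40.4% of the counts of a library. Among HA-positive libraries the median total was 382321 counts with empty and 553810 with g4. Levels are given as CPM (counts scaled to an effective library size of 1e6), and 3 counts corresponded to 3.32 to 12.1 CPM. Animal 19's g4 HA-positive library stood apart. It held 618 CPM of Xist, which was at 0 in the other 3 libraries of that animal, together with 46.0 CPM of 4 Y-linked genes. Its summed oligodendrocyte markers reached 1357 CPM against at most 199 in the other g4 HA-positive libraries. Microglia markers summed to 312 against at most 38.8 CPM, striatal to 234 against 42.0 and oligodendrocyte precursor to 117 against 22.0. Its inhibitory neuron sum of 1885 CPM was the lowest of the group. Its pan-neuronal, excitatory neuron and astrocyte sums lay within the range of the other libraries. Where leaving this library out changed a call on the 10 genes or on further genes of the pathway, both results are given. Counts of cell type markers called and the fit with a term for the animal are given only with it. Another 4 HA-positive libraries detected fewer than 10000 genes (empty, animals 17, 21 and 22, and g4, animal 18).

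The 6 pan-neuronal markers summed to between 2922 and 4338 CPM in the 28 libraries. The HA-positive and HA-negative fractions differed in their cell type markers. In the counts of markers below, higher and lower mean a Benjamini-Hochberg adjusted p under 0.05 in edgeR. Of all genes tested, 7.01% passed with empty and 6.4% with g4. The 12 inhibitory neuron markers summed to 3209 to 4465 CPM in empty HA-positive and 1885 to 3863 CPM in g4 HA-positive libraries, against 1019 to 1386 and 924 to 1376 CPM in the matching HA-negative libraries. Of 11 inhibitory markers tested, 9 were higher in HA-positive nuclei with either vector, and 11 had log2 differences above 0. The 12 excitatory neuron markers summed to 952 to 1895 CPM in empty HA-positive and 1961 to 2579 CPM in empty HA-negative libraries, which did not overlap, and to 1537 to 2093 and 1828 to 2485 CPM with g4. Of these markers 3 were lower in HA-positive nuclei with either vector, of 11 tested with empty and 12 with g4. Their log2 differences were below 0 for 10 of 11 with empty and 9 of 12 with g4. Striatal markers were lower in 3 of 3 tested with empty and 4 of 4 with g4. Oligodendrocyte markers were lower in 7 of 7 tested with empty and 6 of 8 with g4, microglia markers in 5 of 5 and 3 of 5. Astrocyte markers followed this pattern less, with 1 of 5 lower with empty and 0 of 5 with g4. Log2 differences were below 0 for 4 of 5 with empty and above 0 for 4 of 5 with g4. Their sums with empty were 621 to 1287 CPM in HA-positive and 1068 to 1420 CPM in HA-negative libraries. Their sums with g4 were 886 to 2236 CPM in HA-positive and 1096 to 1578 CPM in HA-negative libraries. Cx3cr1, P2ry12 and C1qa of the 7 microglia markers and Opalin of the 10 oligodendrocyte markers were at 0 in every empty HA-positive library. The part of this difference in cell makeup in the results below was not tested, and in sorted bulk nuclei fewer nuclei of a type and less RNA per nucleus cannot be told apart.

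None of the 10 genes passed the test between the g4 and empty vectors or between HA-positive and HA-negative nuclei at a Benjamini-Hochberg adjusted p under 0.05 (edgeR quasi-likelihood test over all genes tested), the threshold used for a call throughout. In HA-positive nuclei, g4 against empty, 0 of the 5 genes with enough counts were called, 0 had an unadjusted p under 0.05, and 0.0599% of 5011 genes were called. In HA-negative nuclei 0 of 7 were called and 0 had an unadjusted p under 0.05, beside 0% of 6262 genes. The difference between those effects gave 0 of 7, again with 0 at an unadjusted p under 0.05, beside 0% of 7197 genes. HA-positive against HA-negative nuclei gave 0 of 7 with empty, with 0 at an unadjusted p under 0.05, where 7.01% of 5538 genes were called. With g4 it gave 0 of 7, with 2 at an unadjusted p under 0.05, where 6.4% of 6264 genes were called. DESeq2 and limma voom also called 0 of these genes in each of the 5 comparisons. None of these 3 fits had a term for the animal. With the animal as a block, edgeR called 1 of the 10 genes, Trp53bp1, in HA-positive against HA-negative nuclei with g4. Its adjusted p was 0.0230, beside 6.24% of all genes called in that fit. Trp53, Cdkn1a and Bax were below the count filter in all 5 comparisons, and Mdm2 and Atr in the first of them. Values for these come from a fit without a filter, in which 0.16%, 0%, 0.0153%, 3.72% and 3% of all genes were called, in the order above.

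**Figure D1:**
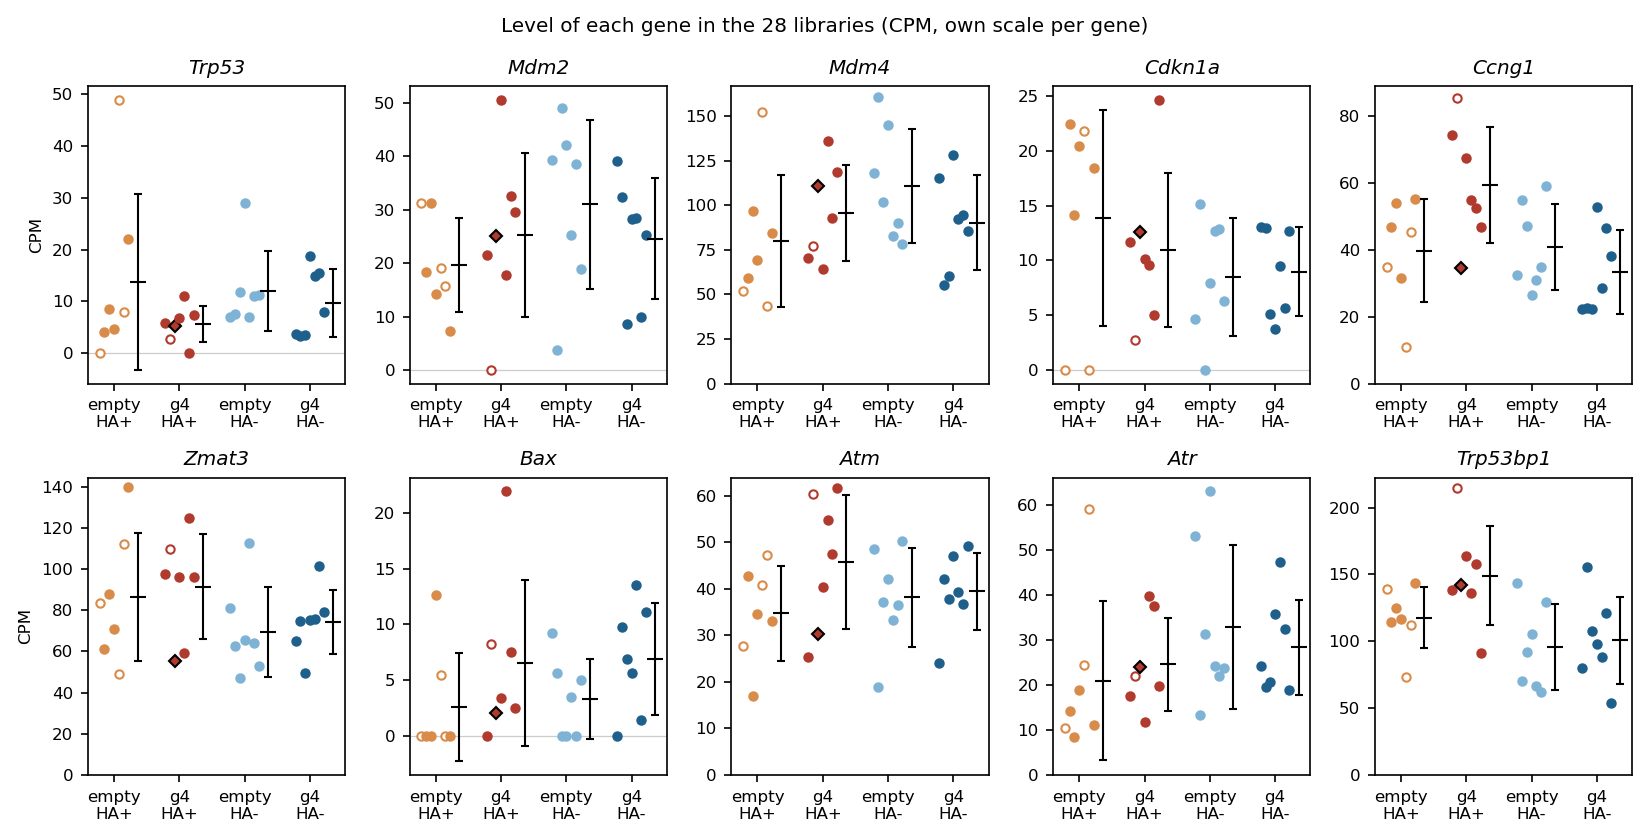
CPM of each of the 10 genes in every library, by group, with the mean and SD of 7 libraries as bars. Open circles are the 4 HA-positive libraries with fewer than 10000 genes and the diamond is animal 19's g4 HA-positive library. Ccng1 in g4 HA-positive nuclei runs from 34.5 to 85.2 CPM and overlaps every other group.

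Trp53 (chromosome 11, 69580359 to 69591873, GRCm38, plus strand, protein coding) was near the limit of detection. Its CPM ran from 0 to 49.0 in empty HA-positive libraries (median 7.88), from 0 to 11.0 in g4 HA-positive (median 5.86), from 6.91 to 29.0 in empty HA-negative (median 11.0) and from 3.25 to 18.8 in g4 HA-negative (median 7.92). The groups overlapped, each step between neighbouring group means was smaller than the larger SD, and the highest value, 49.0 CPM from 18 counts, came from the empty HA-positive library of animal 21. Between g4 and empty in HA-positive nuclei the log2 difference was -1.15 ± 0.85 (standard error, SE), with a 95% interval from -2.81 to 0.51 and an adjusted p of 0.626 in edgeR. The 36 and 24 counts that Trp53 received over the 2 HA-positive groups leave a fold between 0.143 and 1.42 within this interval.

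Mdm2 is the ubiquitin ligase that marks p53 for destruction and is itself a p53 target, with its gene on chromosome 10 (117688875 to 117710758, minus strand). Its group means were 31.0 ± 15.8 CPM (SD, n = 7) in empty HA-negative, 25.3 ± 15.4 in g4 HA-positive, 24.6 ± 11.3 in g4 HA-negative and 19.6 ± 8.82 in empty HA-positive nuclei. Each neighbouring pair in that order differed by less than its SD, and single libraries ranged from 0 to 50.6 CPM. The log2 difference between g4 and empty in HA-positive nuclei was 0.44, with an interval from -0.64 to 1.51 and an adjusted p of 0.787 in edgeR. With empty, Mdm2 was lower in HA-positive than HA-negative nuclei in 6 of 7 animals, by a log2 difference of -0.65 ± 0.46 (adjusted p = 0.491, edgeR), which did not pass the test.

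Mdm4, which binds p53 and blocks its activity, lies on chromosome 1 (132959484 to 133030561, minus strand) over a processed pseudogene, Gm29257, on the opposite strand. The strand setting of the counting is not given, so reads of the overlap could not be assigned. Its CPM ran from 43.3 to 152 in empty HA-positive libraries (median 69.3), 64.1 to 136 in g4 HA-positive (92.5), 77.9 to 161 in empty HA-negative (102) and 55.2 to 128 in g4 HA-negative (92.1). All 4 ranges overlapped, and each step between neighbouring group means was smaller than the SD of either group. With empty, Mdm4 was lower in HA-positive nuclei in 5 of 7 animals, at a log2 difference of -0.46 ± 0.26 (SE) and an adjusted p of 0.342 in edgeR. Without animal 21, whose HA-positive library held the highest value, this was -0.77 with an adjusted p of 0.0724, which still missed the threshold. With g4 the same difference was 0.08 ± 0.21, and the change of effect between vectors was 0.57 ± 0.34 with an adjusted p of 0.996 in edgeR.

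Cdkn1a encodes p21, the cell cycle inhibitor that is the best known target of p53, and lies on chromosome 17 (29090976 to 29100727, plus strand) with AC167363.2 on the opposite strand. CPM ran from 0 to 22.4 in empty HA-positive libraries (median 18.4), 2.75 to 24.7 in g4 HA-positive (10.1), 0 to 15.1 in empty HA-negative (7.90) and 3.76 to 13.0 in g4 HA-negative (9.48). No library held more than 13 counts of it, and the groups overlapped. The log2 difference between g4 and empty in HA-positive nuclei was -0.31, with an interval from -1.75 to 1.13 and an adjusted p of 0.916 in edgeR. In folds this interval runs from 0.297 to 2.19, and the counts do not narrow the difference further.

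Ccng1 encodes cyclin G1, a p53 target that acts back on the p53-Mdm2 pair, and lies on chromosome 11 (40748552 to 40755311, minus strand). It was higher in HA-positive than HA-negative nuclei with g4 in every animal, without passing the test over all genes. With g4, HA-positive libraries ran from 34.5 to 85.2 CPM (median 54.9) and HA-negative libraries from 22.3 to 52.7 CPM (median 28.4), so the ranges overlapped. With empty they ran from 10.9 to 55.2 CPM (median 45.3) and from 26.3 to 59.1 CPM (median 34.8), with no direction common to the animals. In order of their means the groups were g4 HA-positive, empty HA-negative, empty HA-positive and g4 HA-negative, and of the steps between neighbours only the first exceeded the SD of both groups.

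Within animals, Ccng1 with g4 stood at 22.3 CPM in HA-negative and 74.2 CPM in HA-positive nuclei of animal 17, and at 22.7 and 85.2 CPM in animal 18. The other 5 animals showed smaller steps, the smallest in animal 22 from 46.5 to 52.5 CPM. Group means were 59.4 ± 17.3 and 33.3 ± 12.6 CPM (SD, n = 7), a log2 difference of 0.80 ± 0.28 (SE; interval 0.23 to 1.37) with an adjusted p of 0.0913 in edgeR. Of the 6264 genes tested, 4.26% were higher in HA-positive nuclei of all 7 animals. The 7 include animal 19, where the pairing of the g4 HA-positive library is uncertain. Without animal 19's g4 HA-positive library the log2 difference was 0.90 with an adjusted p of 0.0396 in edgeR, where 7.96% of the genes tested were called. Without the library of animal 18, which has fewer than 10000 genes, it was 0.69 with an adjusted p of 0.152. With both libraries of any 1 animal left out, the adjusted p was 0.0832 to 0.287 in edgeR, so the gene was not called.

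With empty the Ccng1 means were 39.8 ± 15.5 CPM in HA-positive and 40.8 ± 12.8 CPM in HA-negative nuclei (SD, n = 7). The log2 difference was -0.04 ± 0.34 (SE), with HA-positive higher in 4 of 7 animals and an adjusted p of 0.967 in edgeR. The difference between the vectors in this step was 0.86 ± 0.44 (interval -0.02 to 1.74), with an unadjusted p of 0.0542 and an adjusted p of 0.979 in edgeR. It was 0.55 without the 4 HA-positive libraries under 10000 genes. A direct comparison of g4 with empty in HA-positive nuclei gave 0.56 ± 0.33 (adjusted p = 0.755, edgeR), with g4 higher in 5 of 7 animals, and 0.26 without those 4 libraries. These comparisons share the g4 HA-positive libraries and are not separate lines of evidence.

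**Figure D2:**
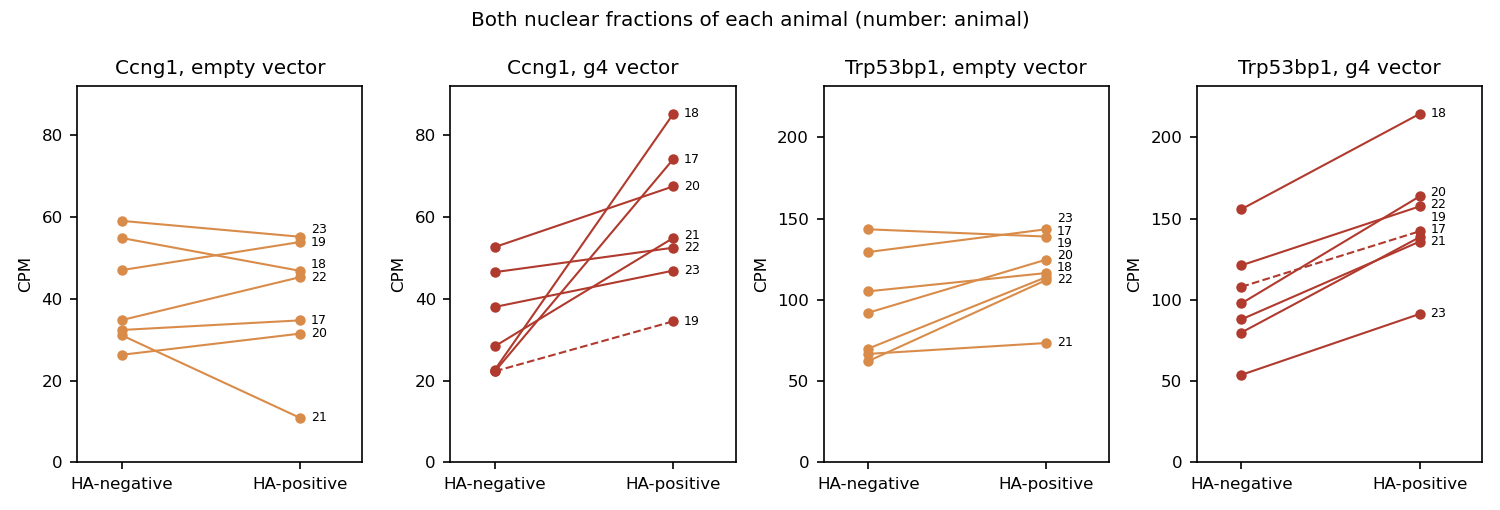
CPM of Ccng1 and Trp53bp1 in the HA-negative and HA-positive nuclei of each animal, joined by a line and numbered by animal, with each vector. The dashed line is the g4 side of animal 19, where the pairing of the HA-positive library is uncertain. With g4 both genes are higher in HA-positive nuclei in 7 of 7 animals, and with empty Ccng1 is higher in 4 and Trp53bp1 in 6.

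Zmat3, an RNA-binding zinc finger protein and p53 target, lies on chromosome 3 (32334792 to 32366014, minus strand). Group means were 91.4 ± 25.5 CPM in g4 HA-positive, 86.4 ± 31.1 in empty HA-positive, 74.5 ± 15.6 in g4 HA-negative and 69.4 ± 21.9 in empty HA-negative nuclei (SD, n = 7), and each neighbouring pair differed by less than its SD. The log2 difference between g4 and empty was 0.06 ± 0.26 in HA-positive and 0.09 ± 0.21 in HA-negative nuclei (adjusted p = 0.976 and 0.999, edgeR). In HA-positive nuclei its interval ran from -0.47 to 0.59, a fold of 0.723 to 1.51. HA-positive exceeded HA-negative nuclei by 0.30 ± 0.26 with empty and 0.26 ± 0.21 with g4, neither past the test.

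Bax encodes a pore-forming protein of the mitochondrial death pathway and lies on chromosome 7 (45461697 to 45466898, minus strand), overlapped on the same strand by Gm45808, so counts in the overlap are uncertain. It was listed at 0 in 5 of 7 empty HA-positive libraries, 1 of 7 g4 HA-positive, 3 of 7 empty HA-negative and 1 of 7 g4 HA-negative. Its highest value was 22.0 CPM, from 16 counts in the g4 HA-positive library of animal 21. Bax received 10 counts over the empty HA-positive group and 27 over the g4 HA-positive group, a log2 difference of 1.16 with an interval from -0.89 to 3.20 and an adjusted p of 0.663 in edgeR. No difference between these groups was detected, and the interval is wide.

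Atm, the kinase that answers double-strand breaks, lies on chromosome 9 (53439149 to 53536740, minus strand). Its means were 45.8 ± 14.4 CPM in g4 HA-positive, 39.5 ± 8.20 in g4 HA-negative, 38.2 ± 10.5 in empty HA-negative and 34.8 ± 10.2 in empty HA-positive nuclei (SD, n = 7). Neighbours in that order differed by less than their SD, and single libraries ran from 17.0 to 61.7 CPM. In HA-positive nuclei g4 was above empty in 6 of 7 animals, at a log2 difference of 0.36 ± 0.35 (adjusted p = 0.901, edgeR), which did not pass the test.

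Atr, the kinase that answers single-stranded DNA, lies further along chromosome 9 (95857597 to 95951781, plus strand), with 1700065D16Rik and Gm16794 on the opposite strand and Gm24004 on its own. Its means ran from 33.0 ± 18.2 CPM in empty HA-negative through 28.4 ± 10.6 in g4 HA-negative and 24.6 ± 10.3 in g4 HA-positive to 21.0 ± 17.7 in empty HA-positive nuclei (SD, n = 7). The spread of each group exceeded the steps between them. The log2 difference between g4 and empty in HA-positive nuclei was 0.24, with an interval from -0.81 to 1.29 and an adjusted p of 0.910 in edgeR.

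Trp53bp1 encodes 53BP1, which gathers on chromatin beside a break and favours joining of the ends without a template. Its gene lies on chromosome 2 (121193281 to 121271407, minus strand) and overlaps Tubgcp4 on the opposite strand, so that reads of the overlap could not be assigned. CPM ran from 91.3 to 214 in g4 HA-positive libraries (median 142), 73.5 to 144 in empty HA-positive (117), 53.9 to 156 in g4 HA-negative (97.9) and 62.3 to 143 in empty HA-negative (92.1). All 4 ranges overlapped, the means fell in the order just given with each step under the larger SD of its groups, and the highest library of both g4 groups came from animal 18 and the lowest from animal 23.

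With g4, Trp53bp1 was higher in HA-positive nuclei in 7 of 7 animals, from 53.9 to 91.3 CPM in animal 23 and from 156 to 214 CPM in animal 18. The 7 include animal 19, whose g4 HA-positive library held Xist that its other libraries lacked, so this pair is uncertain. The means were 149 ± 37.0 and 101 ± 32.4 CPM (SD, n = 7), a log2 difference of 0.58 ± 0.19 (SE; interval 0.18 to 0.97) with an adjusted p of 0.0713 in edgeR. With the animal as a block, which removes differences between animals, the same difference had an adjusted p of 0.0230, beside 6.24% of all genes tested that were called in that fit. The block fit includes the uncertain pair of animal 19 and was not run without it. The adjusted p was 0.0479 with both libraries of animal 18 left out (6.08% of genes called), 0.0708 without animal 19's g4 HA-positive library and 0.139 when only the HA-positive library of animal 18 was left out. The call therefore depended on the model and on the libraries included.

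With empty, Trp53bp1 was higher in HA-positive nuclei in 6 of 7 animals, at 118 ± 23.0 against 95.6 ± 32.0 CPM (SD, n = 7). The log2 difference of 0.31 ± 0.22 (SE) had an adjusted p of 0.497 in edgeR. The difference between the vectors was 0.29 ± 0.30 (interval -0.31 to 0.88) with an adjusted p of 0.996, so the step was not shown to differ between g4 and empty. In HA-positive nuclei g4 exceeded empty by 0.33 ± 0.20 (adjusted p = 0.772, edgeR) in 5 of 7 animals.

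**Figure D3:**
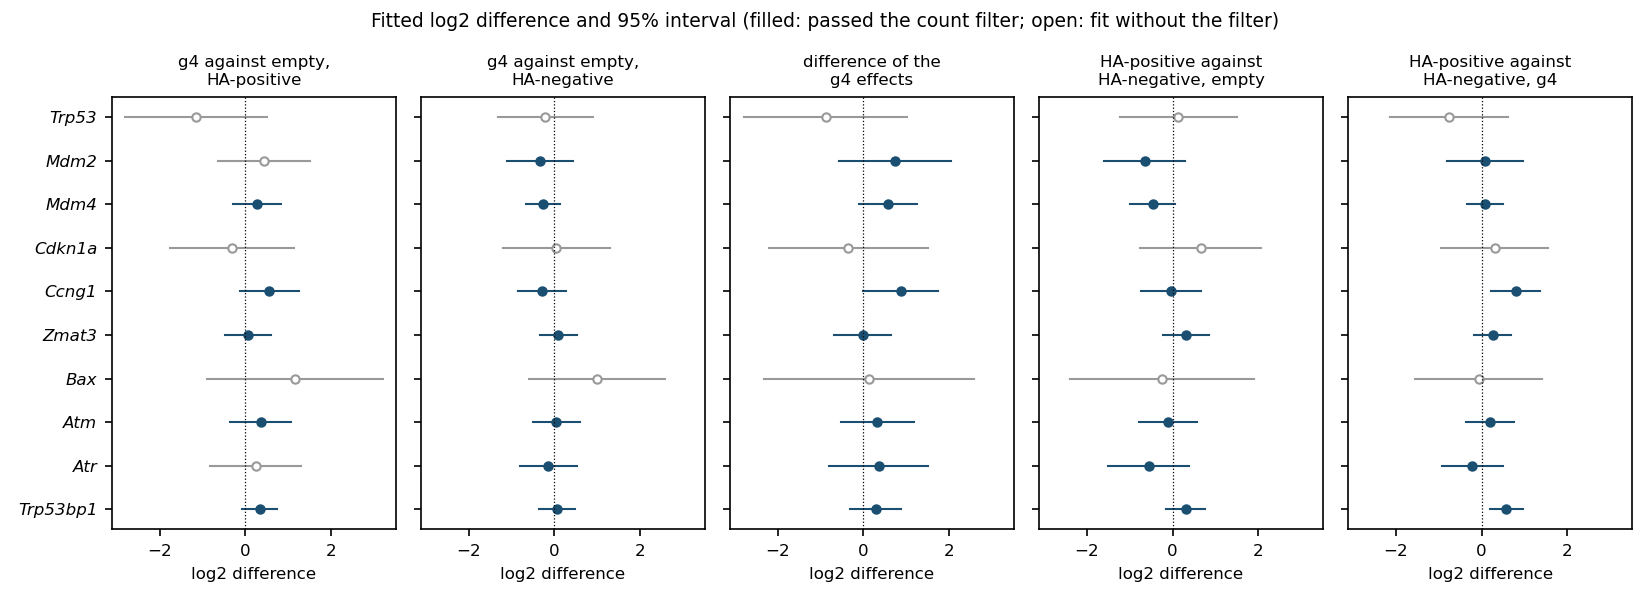
Log2 differences of the 10 genes in each comparison with their 95% intervals from edgeR. The intervals of Ccng1 (0.23 to 1.37) and Trp53bp1 (0.18 to 0.97) in HA-positive against HA-negative nuclei with g4 lie above 0, and neither gene passed the adjusted threshold.

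As a group, the 5 genes tested in HA-positive nuclei had a median log2 difference between g4 and empty of 0.33, with 5 of 5 above 0, against a median of -0.01 and 49.2% above 0 over all 5011 genes tested. In the same comparison the tested excitatory neuron markers had a median of 0.33 (9 of 10 above 0), the astrocyte markers 0.61 (5 of 5 above 0) and the inhibitory neuron markers -0.34 (10 of 12 below 0), with 0 called in edgeR, DESeq2 or limma voom and 2, 1 and 4 at an unadjusted p under 0.05 in edgeR. The part of these marker differences in the values of the 5 genes was not tested. In HA-negative nuclei the median of 7 genes was -0.15, with 3 of 7 above 0, where all genes had a median of 0.00 and 49.2% above 0. HA-positive against HA-negative nuclei gave a median of -0.11 with empty (2 of 7 above 0) and 0.20 with g4 (6 of 7 above 0), where all genes had medians of 0.01 and 0.01, with 50.9% and 50.6% above 0. These medians leave out the genes below the count filter.

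The wider pathway was covered by 4 lists: 37 further p53 targets, 22 regulators of p53, 23 genes of break signalling and 30 of break repair. Most were too low to test. In HA-positive nuclei, g4 against empty, 3 p53 targets, 11 regulators, 3 signalling genes and 1 repair gene were tested, and 0 were called in either direction. The list medians were -0.25, -0.04, 0.26 and -0.49, with 1 gene of the 4 lists at an unadjusted p under 0.05. In HA-negative nuclei 5, 13, 5 and 3 genes were tested with 0 called and 1 at an unadjusted p under 0.05. The difference of those effects was tested in 6, 15, 9 and 6 genes, with 0 called and 1 at an unadjusted p under 0.05. DESeq2 and limma voom called 0 genes of these lists in the same 3 comparisons. HA-positive against HA-negative nuclei gave 1 gene called of 5, 12, 4 and 2 tested with empty, where 2 had an unadjusted p under 0.05 and 7.01% of all genes were called. With g4 it gave 0 of 5, 15, 6 and 2, where 3 had an unadjusted p under 0.05, DESeq2 and limma voom called 0 and 6.4% of all genes were called.

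**Figure D4:**
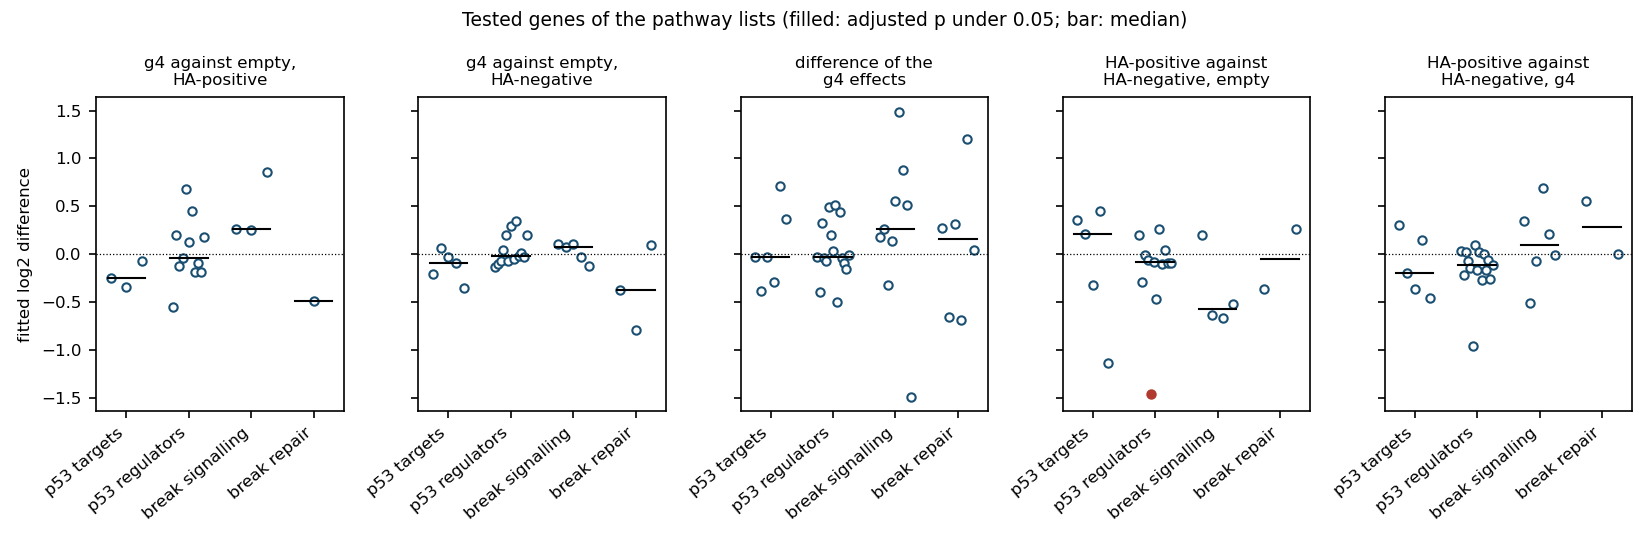
Log2 differences of the tested genes of the 4 pathway lists in each comparison, with the median of each list. The only gene called is Hipk2, lower in HA-positive than HA-negative nuclei with empty.

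Among p53 targets, Plk2, a kinase that tunes synapses, stood at 120 ± 16.0 CPM in g4 and 124 ± 39.9 CPM in empty HA-positive nuclei (SD, n = 7), a log2 difference of -0.07 ± 0.21 (adjusted p = 0.971, edgeR). It was lower in HA-positive than HA-negative nuclei with g4 in 6 of 7 animals, at a log2 difference of -0.37 ± 0.15 and an adjusted p of 0.164 in edgeR. Fbxw7, the substrate-binding part of a ubiquitin ligase, stood at 149 CPM in g4 and 186 CPM in empty HA-positive nuclei (log2 difference -0.34 ± 0.26, adjusted p = 0.860, edgeR). Ei24, a membrane protein of the endoplasmic reticulum, stood at 36.1 and 42.7 CPM (-0.25 ± 0.43, adjusted p = 0.956, edgeR).

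Among regulators of p53, Hipk2, a kinase that phosphorylates p53, fell in HA-positive relative to HA-negative nuclei with empty. Its CPM ran from 2.72 to 34.0 (median 11.8) in HA-positive and from 18.9 to 64.1 (median 50.3) in HA-negative libraries, with overlapping ranges and a lower value in 6 of 7 animals. The log2 difference was -1.46 ± 0.43 with an adjusted p of 0.0325 in edgeR, and Hipk2 was the 1 gene called of 12 regulators tested, beside 7.01% of all genes. The call was lost with the animal as a block (adjusted p = 0.0628), with limma voom (0.120), without the HA-positive libraries under 10000 genes (-0.92, adjusted p = 0.126) and without any 1 of animals 17, 20, 21, 22 and 23, where the adjusted p reached 0.0977. With g4 the difference was -0.96 ± 0.35 (adjusted p = 0.109, edgeR) and lower in 7 of 7 animals, and it passed without animal 19's g4 HA-positive library, at -1.29 with an adjusted p of 0.0178. The acetyltransferase Crebbp and the ubiquitin ligases Herc2 and Huwe1 differed between the vectors in HA-positive nuclei by 0.20 ± 0.16, -0.04 ± 0.15 and 0.12 ± 0.14 on the log2 scale, none past the test.

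Among break genes, Rif1, which works with 53BP1 at break ends, stood at 60.9 ± 19.2 CPM in g4 and 33.1 ± 20.2 CPM in empty HA-positive nuclei (SD, n = 7). Single libraries ran from 37.1 to 95.2 and from 0 to 59.6 CPM and overlapped, and the log2 difference of 0.85 ± 0.41 had an unadjusted p of 0.0476 and an adjusted p of 0.736 in edgeR. Atmin, an Atm cofactor, and Prkdc, the catalytic subunit of the DNA end-joining kinase, differed by 0.26 ± 0.26 and 0.26 ± 0.43. Parp1, which senses strand breaks, was lower with g4 in HA-negative nuclei in 6 of 7 animals, at 38.4 ± 10.5 against 65.7 ± 36.6 CPM (SD, n = 7). Its log2 difference of -0.79 ± 0.27 had an unadjusted p of 0.00528 and an adjusted p of 0.999 in edgeR, and in HA-positive nuclei it was -0.49 ± 0.37 (adjusted p = 0.860). With g4, Parp1 was higher in HA-positive than HA-negative nuclei in 6 of 7 animals, at a log2 difference of 0.56 ± 0.25 (interval 0.05 to 1.07) with an unadjusted p of 0.0337 and an adjusted p of 0.228 in edgeR. The DNA ligase Lig3 differed by -0.38 ± 0.36 in HA-negative nuclei and the helicase Wrn by 1.20 ± 0.84 in the difference of effects, neither past the test.

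Across the 28 libraries, the genes whose log2(CPM + 1) followed that of Trp53bp1 most closely among 7197 genes were Cntnap4 (Pearson r = 0.69), Atp6v1a (0.69) and Tcf4 (0.68). For Mdm4 they were Kdm5a (0.71), Eif4a1 (0.69) and Ipcef1 (0.68). Among the 10 genes, Trp53bp1 had r = 0.44 with Ccng1 and -0.35 with Mdm4. These values describe libraries that share animals, sort fractions and differences in depth.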

How the data were processed

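Nuclear RNA of 28 libraries was sequenced, and the authors deposited raw counts per gene, per the labels, in 1 table for each sort fraction. The genome build was GRCm38, per the submitters' processing notes. The aligner is not given in the sources used here, nor are the counting program, the strand setting and any use of molecular identifiers. Empty cells were read as 0 counts, and the 1 entry naming no gene, with 0% of the counts, was left out. Columns were tied to samples by the sample descriptions, since for 3 animals the number in the title is 1 lower than in the column name. Titles give the animal numbers used here.

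Genes were tested in R 4.3.3 with edgeR 4.0.16 (quasi-likelihood test, low counts removed by filterByExpr, TMM factors, robust fit, two-sided, Benjamini-Hochberg adjustment over all genes tested, called under 0.05), on the groups compared, or on all 28 libraries for the difference of effects. The code was tested on simulated counts of genes that passed the filter. Log2 changes of 1 were called in 52.9% of changed genes for g4 against empty in HA-positive and 70% in HA-negative nuclei. The share was 13.7% for the difference of effects, and 44.2% with empty and 47.3% with g4 between fractions. Changes of 2 were called in 58.3% to 98.8%. Genes below the filter were fitted without it. Printed CPM use TMM factors over all 28 libraries. Alternatives were DESeq2 1.42.0, limma 3.58.1 voom, DESeq2 size factors, no filter, the animal as a block, each animal left out, and leaving out animal 19's g4 HA-positive library or the 4 HA-positive libraries under 10000 genes. The 2 vectors and 2 fractions of an animal come from the same mouse, so the numbers pair the libraries, although the correlation of their deviations from the group means was only -0.1 to 0.132. Xist in animal 19's g4 HA-positive library leaves the pairing of that library uncertain. Positions come from the GENCODE annotation of GRCm38.

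All 10 genes are reported. Of the pathway lists, genes called in a comparison are named, and where fewer than 3 of a list were called, the 3 tested genes with the highest mean CPM. The genes and lists were chosen with earlier results of these data known.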

Additional observations from a re-analysis of the deposited data

Results flagged for a closer look

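Each of the 10 genes was checked in each of the 4 groups for a library far from the other 6, 40 groups in all. The cutoff would mark about 1 in 20 by chance for normally distributed values. Its rate for low counts such as these was not tested. Trp53 stood at 28.95 CPM in the empty HA-negative library of animal 20, far above the rest of that group. Bax stood at 21.96 CPM in the g4 HA-positive library of animal 21, and Atr at 59.11 CPM in the empty HA-positive library of animal 22.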

How the results depend on the processing

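Of 652 values of the 10 genes under alternatives, 605 kept their direction and side of the threshold, 3 newly passed and 44 reversed, and 35 of 50 results never reversed; the cause of the reversals was not tested. With the animal as a block (pairing by animal), Trp53bp1 gained its call with g4 (1 gene called), 1 gene of all was called for g4 against empty in HA-positive nuclei, 0 list genes were called with empty, and Trp53 (-0.34, HA-positive against HA-negative, empty) and Zmat3 (0.0047, difference of effects) reversed. No other call on the 10 genes or the lists changed. All genes called for g4 against empty in HA-positive nuclei, 3 as reported, were 28 without a filter, 5 with DESeq2, 1 with limma voom, 5 without animal 19's g4 HA-positive library, 0 without the libraries under 10000 genes, and 1 to 4 without 1 animal. In HA-negative nuclei DESeq2 called 1, and the difference of effects gave 3 without a filter. HA-positive against HA-negative nuclei gave 661 without a filter, 664 with DESeq2 and 251 to 371 without 1 animal with empty, and 218 to 422 with g4. List genes called with empty were 2 without a filter, 2 with DESeq2, 0 with limma voom and 0 to 1 without 1 animal. With g4, 1 list gene and 1 of the 10 genes were called without the library of animal 19, and 0 to 1 of each without 1 animal. Reversed log2 values with limma voom were Cdkn1a 0.22 (g4 against empty, HA-positive), Atr 0.061 (HA-negative) and Trp53 -0.37 (empty fractions). Without the libraries under 10000 genes they were Zmat3 -0.0067 (g4 against empty, HA-positive), Bax -0.27 (difference), and Trp53 -0.40, Ccng1 0.15 and Bax 0.11 (empty fractions). Without the library of animal 19 they were Zmat3 0.067 (difference) and Bax 0.11 (g4 fractions), and without a filter Zmat3 0.0074 (difference). Leaving out 1 animal gave, for g4 against empty, Zmat3 -0.068 to 0.20 in HA-positive nuclei and, in HA-negative nuclei, Cdkn1a -0.17 to 0.24, Zmat3 -0.020 to 0.27, Atm -0.080 to 0.20, Atr -0.40 to 0.047 and Trp53bp1 -0.11 to 0.27. It gave Zmat3 -0.22 to 0.18 and Bax -0.42 to 1.92 for the difference, Trp53 -0.77 to 0.60, Ccng1 -0.13 to 0.053 and Bax -1.91 to 0.32 with empty, and Mdm2 -0.15 to 0.34, Mdm4 -0.045 to 0.26 and Bax -0.56 to 0.21 with g4. Depth limits Trp53, Cdkn1a and Bax most.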

Other observations

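Rprm and Sesn1, both p53 targets, were called only under an alternative, in HA-positive against HA-negative nuclei with the empty vector. Rprm, which arrests the cell cycle, had a log2 difference of -4.46 without a count filter (adjusted p = 0.00518, edgeR) and of -4.44 with DESeq2 (adjusted p = 0.00125). Sesn1, a stress-response protein, had -1.14 as reported for the other genes (adjusted p = 0.217, edgeR) and -2.11 without the HA-positive libraries under 10000 genes (adjusted p = 0.0155, edgeR). Both genes were lower in HA-positive nuclei in these fits, and the part of cell makeup in these values was not tested.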
